A study of Arabidopsis thaliana and Cucumis sativus and Glycine max with 60 samples.

Results

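Of 96559 maize gene rows, 58 had an expression peak in the elongation zone (EZ) of the primary root. Peak genes had a mean of at least 10 RPKM (reads per length of gene and per size of library) over the EZ libraries. Their EZ mean + 1 also had to reach at least 4 times both the mean + 1 of the meristematic zone (MZ) and that of the differentiation zone (DZ). All 3 zone means thus chose the members, so the levels of the peak and its size over either neighbour are a description and carry no test. The study covered 7 species in 60 samples, and the table with all 3 zones holds 311875 gene rows of 6 of them. The maize samples were primary roots of cultivar B73 seedlings, 4 days after plating on agarose medium in constant light, and the labels give no treatment and no second genotype. Growing tips were dissected along their length into the 3 zones, and each zone had 3 libraries, which the series calls biological replicates. The labels do not say how many roots a library pooled, nor whether the 3 zones of a number came from the same roots.

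The zones follow the path of a root cell. Cells divide in the meristem, then stop dividing and lengthen in the EZ by loosening and extending the wall while the vacuole fills, and take on their final form in the DZ, where root hairs, the Casparian strip and thickened xylem walls arise. In the EZ of a maize root many tissues lengthen side by side, and a cell stays there only for hours. The deposited table pairs no maize locus with a gene name, and the reference used here was of Arabidopsis alone, so no role is assigned to any of them and the zone labels were not checked against marker genes. Members are called by their rank in EZ mean, from 1 for the highest to 58. In bulk samples, fewer cells of a type and less RNA per cell cannot be told apart.

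Genes with a peak in the EZ were the fewest of the 3 kinds in maize. Under the same rule applied to each zone in turn, 237 genes peaked in the MZ, 58 in the EZ and 1198 in the DZ. These were 2.21%, 0.551% and 11.1% of the genes whose mean in the zone concerned reached 10 RPKM (10726, 10520 and 10748 genes). The EZ also had the fewest peak genes in tomato, with 534 in the MZ, 92 in the EZ and 1005 in the DZ, and in cucumber, with 67, 25 and 583 genes in the same order. As a share of the genes that reached a mean of 10 RPKM in the EZ, the EZ peak genes were 0.551% in maize, 0.911% in tomato and 0.267% in cucumber. No difference between species was tested.

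The maize libraries were alike in depth, at 0.943 to 1.09 times MZ replicate 1 as read from the low values, and each listed 33207 to 34636 genes above 0. Across 25756 tested genes, log2 values of 2 libraries correlated at 0.919 to 0.957 within a zone and at 0.439 to 0.856 between zones. Genes are not independent replicates. Libraries of the same number deviated together in every pair of zones.

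EZ means of the members ran from 10.4 to 418 RPKM, with a median of 30.7, and 10 members exceeded 100 RPKM while 18 stayed under 20. Their MZ means ran from 0 to 73.3 RPKM (median 1.76) and their DZ means from 0 to 77.6 RPKM (median 1.54). Both the MZ and the DZ mean were under 1 RPKM in 18 members. The smaller of the 2 ratios, EZ mean + 1 to MZ or DZ mean + 1, had a median of 6.69. It was at least 8 in 22 members, at least 16 in 10 and at most 54.0. Among those 10, ranks 26, 29, 30, 34, 39, 42 and 45 were above 0.01 RPKM in only 1 or 2 EZ libraries. The MZ was the zone closer to the EZ for 23 members. The other 35 had the DZ closer or both zones equally far, as in ranks 26 and 36, listed at 0 RPKM in both. Just inside the fold limit the smaller ratio was 4.06, 4.09 and 4.17, and just outside it 3.95, 3.94 and 3.87. The gene at 4.06 had 70.3 RPKM in the EZ against 16.5 in the DZ, and the gene at 3.95 had 16.6 against 3.46.

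Summed over the 58 members, RPKM came to 562, 198 and 609 in the MZ libraries 1, 2 and 3, to 3902, 3614 and 3716 in the EZ libraries and to 137, 437 and 492 in the DZ libraries. The EZ sums lay close together, whereas MZ replicate 2 and DZ replicate 1 were each the lowest of their zone. In EZ libraries this was 0.488% to 0.526% of the RPKM of all maize rows, against 0.0266% to 0.0832% in the MZ and 0.0201% to 0.0730% in the DZ.

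**Figure D1:**
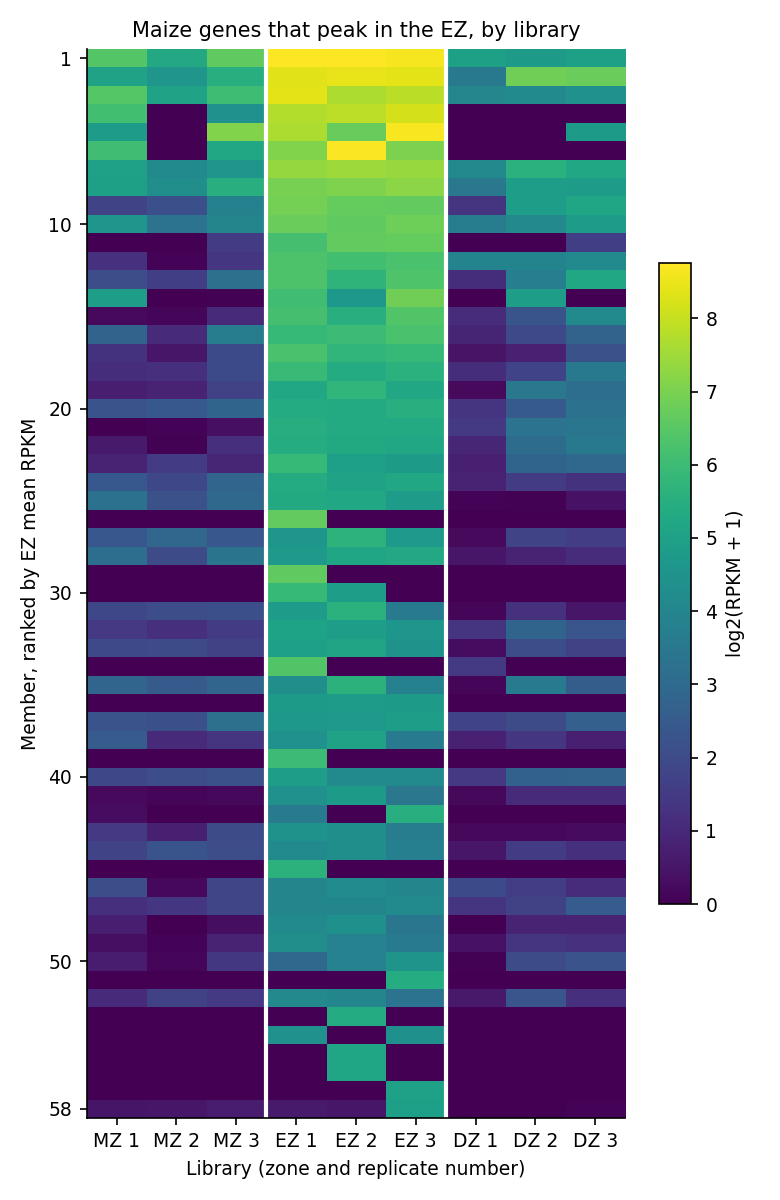
Heat map of log2(RPKM + 1) of the 58 members (rows, ranked by EZ mean from 1 at the top) in the 9 maize libraries (columns, zone and replicate number). The EZ columns stand out in most rows, while 13 rows are above 0.01 RPKM in only 1 or 2 EZ libraries.

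The members highest in the EZ differed in how even they were across its libraries. Rank 1 had 84.6, 38.1 and 97.3 RPKM in the MZ, 422, 431 and 401 in the EZ and 30.6, 26.2 and 30.3 in the DZ. Its EZ mean was 418 ± 15.3 RPKM, against 73.3 ± 31.2 in the MZ and 29.0 ± 2.47 in the DZ (SD, n = 3 each). Each EZ library reached at least 4 times each MZ and DZ library (value + 1) in this gene, a stricter condition that 11 of the 58 members met.

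Rank 2 had 32.0, 22.8 and 44.7 RPKM in the MZ, 326, 349 and 338 in the EZ and 10.6, 115 and 107 in the DZ. The EZ values were within a narrow range, but DZ replicate 1 lay far under the other DZ libraries. Without that library its DZ mean was 111 RPKM and its ratio 3.02, under the limit of 4. Rank 7 had 31.0, 17.0 and 23.5 RPKM in the MZ, 164, 175 and 169 in the EZ and 16.6, 46.7 and 37.0 in the DZ. Again the EZ libraries were alike and DZ replicate 1 was the lowest of its zone. Rank 8 had 30.4, 19.1 and 44.1 RPKM in the MZ, 123, 133 and 149 in the EZ and 10.5, 29.3 and 27.6 in the DZ, with the same low library. Of the 58 members 47 still met the rule without DZ replicate 1. The 11 that did not, ranks 2, 7, 9, 13, 21, 22, 35, 40, 47, 50 and 52, then had EZ to DZ ratios from 2.82 to 3.998.

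Ranks 3 and 5 were less even. Rank 3 had 86.9, 31.8 and 64.6 RPKM in the MZ, 337, 205 and 232 in the EZ and 15.5, 17.4 and 20.7 in the DZ. All its EZ values were above all others. Rank 5 had 27.2, 0 and 137 RPKM in the MZ, 206, 104 and 406 in the EZ and 0, 0 and 26.4 in the DZ. Here MZ replicate 3 was above EZ replicate 2, so the zones overlapped, and replicate 3 was the highest library of each zone.

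Ranks 9 and 10 were close in EZ mean, at 107 ± 11.2 and 106 ± 7.48 RPKM, and did not differ beyond their spread. Rank 9 had 2.51, 3.41 and 13.3 RPKM in the MZ, 120, 102 and 98.7 in the EZ and 1.55, 28.3 and 34.9 in the DZ. Rank 10 had 23.3, 9.19 and 15.2 RPKM in the MZ, 109, 98.0 and 112 in the EZ and 11.7, 16.5 and 27.5 in the DZ. At a like EZ level, rank 9 was under rank 10 in MZ replicates 1, 2 and 3 and above it in DZ replicates 2 and 3.

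Rank 17, lower on the list, had 1 of the 10 largest ratios of EZ to its neighbours. It had 1.44, 0.441 and 2.87 RPKM in the MZ, 74.5, 53.8 and 57.5 in the EZ and 0.382, 0.738 and 3.50 in the DZ. Its smaller ratio was 24.4, and all EZ values lay far above all others. Rank 20, with a ratio of 7.17, was closer to the median. It had 3.71, 4.33 and 6.00 RPKM in the MZ, 40.5, 40.2 and 43.5 in the EZ and 1.49, 4.61 and 8.65 in the DZ. Its EZ values were close together, at 41.4 ± 1.80 RPKM (SD, n = 3), and its MZ and DZ means were alike, at 4.68 and 4.92 RPKM.

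The largest ratio belonged to rank 11, which was listed at 0, 0 and 1.96 RPKM in the MZ, 71.1, 98.5 and 102 in the EZ and 0, 0 and 2.08 in the DZ. Outside the EZ it was thus seen in replicate 3 of each zone and listed at 0 in the other libraries. Scaled by depth, its values were whole multiples, within 0.05, of the lowest of them, at 1 in MZ replicate 3, 35.0, 48.0 and 51.0 in EZ replicates 1, 2 and 3, and 1 in DZ replicate 3.

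A peak was not always borne by all 3 EZ libraries. Of the 58 members, 45 were above 0.01 RPKM in 3 EZ libraries, 3 in 2 and 10 in 1, and 11 of the 13 that lacked a library were at or under 0.01 RPKM in the MZ and DZ as well. Rank 26 had 100.3 RPKM in EZ replicate 1 and 0 in the other 8 libraries. Ranks 39 and 45 likewise had 63.7 and 48.3 RPKM in EZ replicate 1 and were listed at 0 elsewhere. Rank 29 had 97.0 RPKM in EZ replicate 1 and under 0.01 RPKM in the other libraries. Rank 34 had 82.0 RPKM in EZ replicate 1, 1.81 RPKM in DZ replicate 1 and under 0.01 RPKM in the others. The EZ signal of these 5 members was in EZ replicate 1. Of the other members above 0.01 RPKM in 1 EZ library, ranks 53, 55 and 56 had it in EZ replicate 2. Ranks 51 and 57 had it in EZ replicate 3. The 9 members seen in a single library had 31.3 to 100.3 RPKM in it, enough for an EZ mean over 10.

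Ranks 55 and 56 carried the same values in all 9 libraries, 35.4 RPKM in EZ replicate 2 and 0 in the others. Whether they are 2 independent records is not known here. Rank 30 had 58.0, 29.3 and 0 RPKM in the EZ libraries, and rank 54 had 20.4, 0 and 20.1, each with 0 in the MZ and DZ. After scaling by depth the 2 values of rank 30 stood in a ratio of 2 to 1, within 0.05, and those of rank 54 were equal within 0.05. Rank 36 had 26.5, 26.7 and 26.0 RPKM in the EZ and 0 in the other libraries, and its 3 EZ values were equal within 0.05 after scaling. In all, 6 members seen in 2 or more libraries had depth-scaled values that were whole multiples, within 0.05, of their lowest. How often this holds over all maize genes was not counted, so nothing about the members as a set is read from it. The number of reads behind 1 step is unknown, since the table gives neither counts nor gene lengths.

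**Figure D2:**
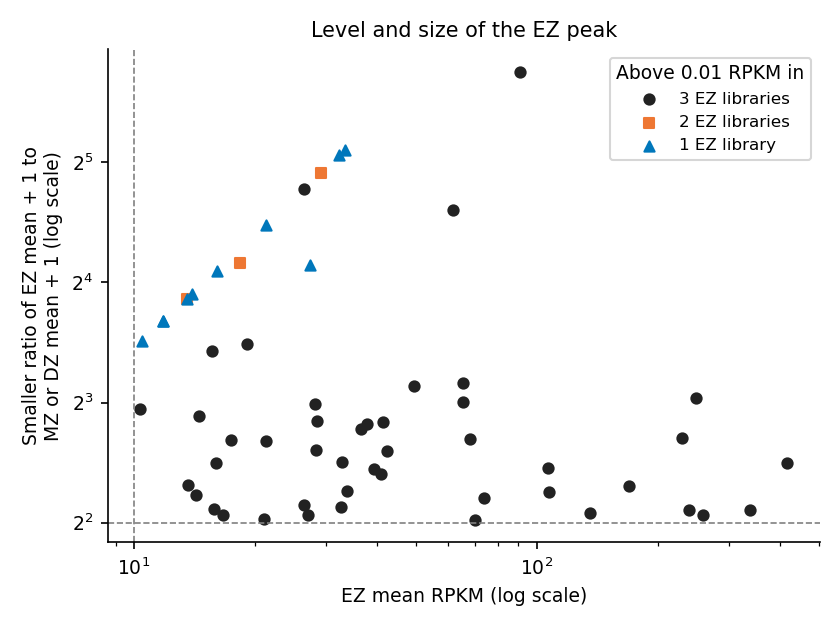
EZ mean RPKM (horizontal, log scale) against the smaller ratio of EZ mean + 1 to MZ or DZ mean + 1 (vertical, log scale) of the 58 members, with symbols for the number of EZ libraries above 0.01 RPKM and dashed lines at the limits of 10 RPKM and 4 times. The 13 members seen in 1 or 2 EZ libraries have EZ means of 10.4 to 33.4 RPKM and ratios of 11.4 to 34.4.

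The test on log2 values took genes that reached 1 RPKM in 3 or more of the 9 libraries, which a gene can pass through its EZ libraries alone. Of the members 44 passed and 14 did not. Over all 25756 genes tested, every EZ library exceeded every MZ and DZ library in 7.69%, against 42 of the 44 members, a count that the rule itself favours. limma called 11.9% of all genes higher in EZ than in MZ and 17.1% higher in EZ than in DZ (called where the adjusted p was under 0.05 and the difference 2-fold or more). Among the 44 members 41 and 43 were called higher, and nothing is read from these counts, since the rule used the same contrasts. EZ libraries lay within 2-fold of each other (value + 1) in 34 of the 44, and the median coefficient of variation of the EZ values was 19.9%. Neither figure was taken over all genes tested, so they do not show whether members were more or less even than other genes.

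Libraries left out of the choice gave values the choice had not used. When members were chosen from replicates 2 and 3 of each zone, 66 genes were found, and 26 of them (39.4%) met the rule within the replicates numbered 1 alone. Among all genes of at least 10 RPKM in EZ replicate 1, the share was 1.85%. Of 70 genes chosen without the replicates numbered 2, 29 (41.4%) met it there, against 1.09% of all such genes. Of 98 genes chosen without the replicates numbered 3, 22 (22.4%) met it there, against 0.850%. With all libraries the count was 58, so leaving out the replicates numbered 3 changed it most. EZ was the highest zone in the left-out libraries for 43 of 66 (65.2%), 46 of 70 (65.7%) and 68 of 98 genes (69.4%). Among all genes whose other 2 EZ libraries averaged at least 10 RPKM, it was the highest in 31.2%, 30.0% and 30.0%.

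With a single EZ library left out, 65, 63 and 72 genes were chosen without EZ replicates 1, 2 and 3. The left-out library met the fold limit in 38 of 65, 37 of 63 and 31 of 72 genes. The limit was set against the same MZ and DZ means that had chosen the genes as low there. The left-out library was at or under 0.01 RPKM in 16, 20 and 20 of them. Neither count was taken over all genes, so nothing about the members as a set is read from them. Within single replicate numbers, 16 of the 58 members met the rule in all 3 numbers, 19 in 2, 22 in 1 and 1 in none.

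In the zones on either side of the EZ, 1 library stood lowest for most members. DZ replicate 1 was the lowest DZ library in 32 of the 40 tested members whose 3 DZ values differed (80.0%), against 35.4% of all genes tested. It lay at least 2-fold (value + 1) under the log2 mean of the other DZ libraries in 23 of 44 members, against 4.73% of all genes, and the median log2 difference was -1.10 in members and -0.03 over all genes. MZ replicate 2 was the lowest MZ library in 29 of 42 members (69.0%), against 29.2% of all genes. It lay at least 2-fold lower in 12 of 44, against 2.08% of all genes. MZ replicate 3 was the highest MZ library in 26 of 42 members (61.9%), against 44.6% of all genes.

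A low library lowers the zone mean that the rule uses, so these counts were also taken in genes chosen without the library in question. Among 52 genes chosen without DZ replicate 1, of which 38 were tested, that library was at least 2-fold under the log2 mean of the other DZ libraries in 13 (34.2%), with a median log2 difference of -0.78. Among 60 genes chosen without MZ replicate 2, of which 45 were tested, it was at least 2-fold lower in 9, with a median log2 difference of -0.49. Both libraries were thus lower than the others of their zone in genes that they had no part in choosing. The relative depth of DZ replicate 1 was 0.943 and that of MZ replicate 2 was 1.09, and the part of depth in these differences was not tested.

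**Figure D3:**
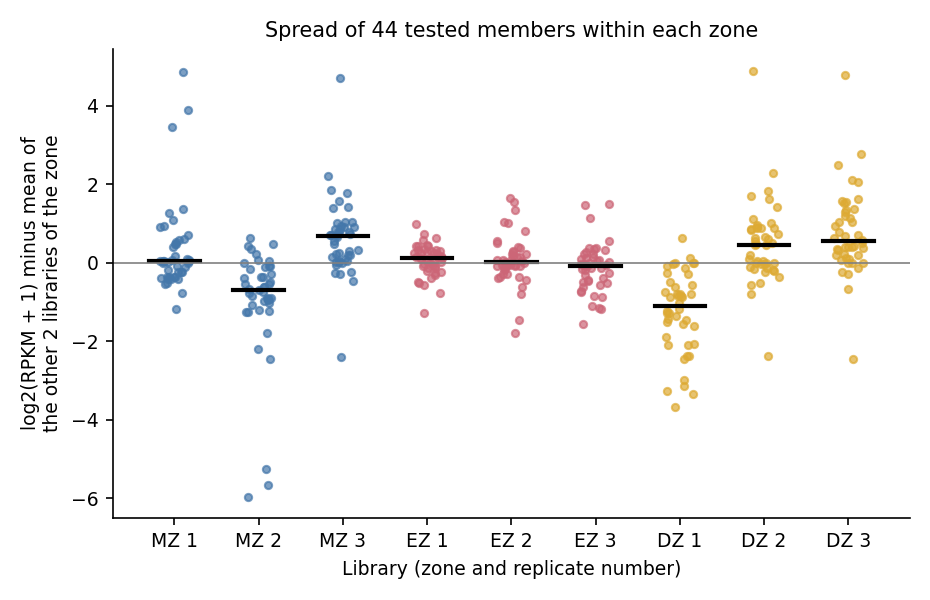
log2(RPKM + 1) of each of the 44 tested members in a library minus the mean of the other 2 libraries of its zone, with a point per member and a black bar at the median. The medians of DZ replicate 1 (-1.10) and MZ replicate 2 (-0.69) lie under 0, and the medians of the EZ libraries stay close to 0.

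The rule did not compare the DZ with the MZ. It bounded both means under the EZ in the same way and set no direction between them. That bound limits how far a member can differ between DZ and MZ, and genes at large have no such bound. Shares of all genes are thus given for scale only. Rank 36, listed at 0 RPKM in both zones, could not be called. The comparison sets the level on the older side of the EZ against the level on the younger side. By limma, 4 of the 44 tested members were higher in the DZ than in the MZ, 10 were lower and 30 were not called, against 23.7% higher and 27.7% lower over all genes tested. The median log2 change was -0.01 in members and -0.12 over all genes, with 15 members at an unadjusted p under 0.05. Of the 44 members, 9 reached 1 RPKM in fewer than 3 of the MZ and DZ libraries and so were tested only because of their EZ values, among them 3 of the 10 lower calls (ranks 4, 6 and 43). With the EZ libraries left out of the fit and of the filter, 35 members were tested, of which 4 were called higher and 7 lower. The lower calls reached down to a log2 change of -2.60 among the 8 members above 0.01 RPKM in the DZ, and the higher ones ran from 1.90 to 3.11. The values of 3 of the 4 higher and 8 of the 10 lower members did not overlap between DZ and MZ libraries. How often this holds among all genes called was not counted, so nothing about the members as a set is read from it.

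GRMZM2G039431, rank 12, rose most in the DZ against the MZ. It had 14.5, 14.4 and 16.7 RPKM in the DZ, against 1.39, 0.0529 and 1.62 in the MZ, with 79.0, 67.5 and 74.9 in the EZ. All DZ libraries were close together and above all MZ libraries. The log2 change of RPKM + 1 was 3.11 ± 0.31 (SE, adjusted p = 3.40e-05, limma).

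GRMZM2G317450, rank 21, followed with a log2 change of 2.61 ± 0.46 (adjusted p = 0.000904, limma). It had 1.82, 9.07 and 9.95 RPKM in the DZ, against under 0.01, 0.0648 and 0.290 in the MZ, with 43.0, 39.7 and 40.2 in the EZ. DZ replicate 1 was the lowest DZ library and still above every MZ library. Both genes held their call in all 18 other settings tried.

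The other members called higher were less steady. Rank 15 had 1.16, 3.82 and 17.0 RPKM in the DZ, against 0.161, 0.118 and 1.12 in the MZ, with 71.5, 43.6 and 82.1 in the EZ. Its DZ libraries were spread widely and all above the MZ libraries, with a log2 change of 2.03 ± 0.68 (adjusted p = 0.0262, limma). Rank 22 had 0.938, 7.56 and 10.7 RPKM in the DZ, against 0.556, 0.0464 and 1.30 in the MZ, with 42.1, 39.2 and 36.8 in the EZ. Its DZ and MZ libraries overlapped, and the log2 change was 1.90 ± 0.61 (adjusted p = 0.0210, limma). Without MZ replicate 1 or 2 both missed the threshold, with adjusted p of 0.0729 and 0.0755 for rank 15 and of 0.0506 and 0.0722 for rank 22 (limma). Rank 22 also missed it without DZ replicate 2 or 3 (adjusted p = 0.0683 and 0.0722, limma).

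The 2 members called lower with the largest change were at or near 0 in the DZ and in 1 of the MZ libraries. Each reached 1 RPKM in only 2 of the 6 MZ and DZ libraries, so both drop out of the test when the EZ libraries are left out. GRMZM2G545347, rank 4, was listed at 0 in every DZ library, against 67.4, 0 and 20.6 RPKM in the MZ, with 213, 237 and 293 in the EZ (adjusted p = 0.0342, limma). GRMZM2G539367, rank 6, was under 0.01 RPKM in every DZ library and in MZ replicate 2, against 66.5 and 36.7 in the other MZ libraries, with 137, 420 and 131 in the EZ (adjusted p = 0.0354, limma). The DZ and MZ libraries thus met at the low end in both genes, and no fold is given. With the replicate number as a block, GRMZM2G539367 lost its call (adjusted p = 0.0553). Both lost it on leaving out any one of MZ replicates 1 and 3 and DZ replicates 1, 2 and 3, with adjusted p of 0.104, 0.101, 0.0728, 0.0737 and 0.0743 for GRMZM2G545347 and 0.12, 0.113, 0.0749, 0.0758 and 0.0764 for GRMZM2G539367, in that order (limma). With no filter on low values it was 0.0589 for GRMZM2G545347 and 0.0608 for GRMZM2G539367.

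Steadier lower calls came after these. Rank 25 had 0.0701, 0.0474 and 0.335 RPKM in the DZ, against 8.57, 3.53 and 6.70 in the MZ, with 38.8, 36.1 and 26.7 in the EZ. Its log2 change was -2.60 ± 0.28 (adjusted p = 5.14e-05, limma), and no DZ value came near an MZ value. Rank 28 had 0.430, 0.831 and 1.18 RPKM in the DZ, against 7.89, 2.96 and 9.22 in the MZ, a log2 change of -1.99 ± 0.36 (adjusted p = 0.00103, limma). Rank 3 had a log2 change of -1.61 ± 0.35 (adjusted p = 0.00297, limma), with every DZ library under every MZ library. These 3 calls held in all 18 other settings. Rank 1, the member highest in the EZ, was also called lower, by a log2 change of -1.21 ± 0.31 (adjusted p = 0.00698, limma), a call lost in 3 of 18 other settings. These were without MZ replicate 3 (log2 change -0.95, under 2-fold), without the replicates numbered 1 (adjusted p = 0.0867) and without those numbered 3 (adjusted p = 0.0592, log2 change -0.98, limma). The other lower calls, at ranks 24, 27, 31 and 43, had log2 changes from -1.40 to -1.18, and each was lost in 3 to 5 of the other settings.

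Among the members not called, some had large changes with wide errors. Of the 30, 5 had a change of at least 2-fold, and the median standard error of the 30 log2 changes was 0.45. Rank 9 was among them, with 1.55, 28.3 and 34.9 RPKM in the DZ against 2.51, 3.41 and 13.3 in the MZ, a log2 change of 1.20 ± 0.96 (adjusted p = 0.291, limma). Its DZ libraries lay on both sides of the MZ libraries.

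The counts depended on single libraries. Without DZ replicate 1 the call was higher for 11 members and lower for 5, among them all 4 of the higher ones and 5 of the 10 lower ones found with all libraries, and the median log2 change was 0.36 in members against -0.15 over all genes. In that setting the members called higher were 25.0% and those called lower 11.4%, against 22.1% and 28.2% of the 24820 genes then tested. With all libraries they were 9.09% and 22.7%, beside the 23.7% and 27.7% of all genes. The higher calls numbered 2 without MZ replicate 1 and 2 without MZ replicate 2, beside 23.0% and 23.6% of all genes then tested. The lower calls numbered 4 without MZ replicate 3, beside 26.6% of all genes then tested. With all libraries more members were called lower than higher in the DZ, and without DZ replicate 1 more were called higher than lower. The members in both fits were those chosen with DZ replicate 1 included, and 11 of them met the rule only with that library. The shift is thus not independent of the choice, and nothing about the members is read from it.

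**Figure D4:**
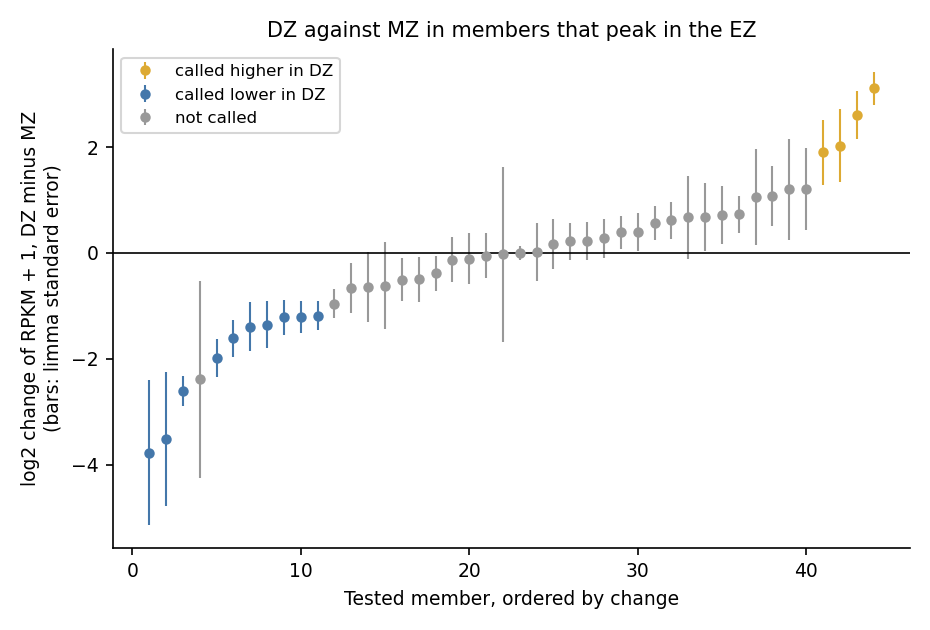
log2 change of RPKM + 1 in DZ against MZ (points) with limma standard errors (bars) for the 44 tested members, ordered by change and coloured by call. The 4 members called higher lie between 1.90 and 3.11, and the 10 called lower lie at the left, at -1.18 or lower.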

How the data were processed

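The authors deposited RPKM values, a unit named by the table, in which each column stacks the libraries of 1 zone and number of 6 species. TopHat2 and FastQC are named in the submitters' processing notes, and per the labels maize reads were mapped with Ensembl release 19, AGPv3. The counting tool, gene lengths, filters, strand and read totals are not known here. Some listed values are far under what a read could give, so they are estimates. A second table, with 2 zones per species, was not used.

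Rows starting with GRMZM were taken as maize. limma 3.58.1 in R 4.3.3 was fitted to log2(RPKM + 1) of the 9 maize libraries (1 RPKM or more needed in 3 libraries; mean trend, robust estimation, two-sided tests, Benjamini-Hochberg adjustment over 25756 genes). Folds of low genes are understated. Genes were called at an adjusted p under 0.05 and at least 2-fold. The script was tested on simulated data. Relative depth is the commonest ratio of low values to MZ replicate 1. Same-numbered libraries deviated together in 9 of 9 pairs (correlations of 0.125 to 0.363). The main fit took the zone alone and did not pair libraries by number. The numbers in the sample titles entered the model only in the alternative fit with the replicate block. The series calls the replicates biological but does not say that they came from separate plants, so p-values measure only the spread between these libraries.

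The members and tests were chosen with earlier results of these data known. The rule named the 12 members highest in EZ mean, the 10 with the largest ratio, up to 5 called in each direction in DZ against MZ and the 3 genes on either side of the fold limit. They are given by rank, with 2 IDs per direction, since no annotation used here names them, and the planned gene families could not be formed. Ranks 20, 54, 55, 56 and 58 were added after their values were seen. Other ranks outside that rule are given only where the members behind a count or a range are listed. Python 3.11.15, pandas 2.3.3, NumPy 2.4.6 and matplotlib 3.10.9 were used. Alternatives covered limits, pseudocount, filter, quantile normalization, plain eBayes, the replicate block and left-out libraries.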

Additional observations from a re-analysis of the deposited data

How the results depend on the processing

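The number of peak genes followed the limits set. It was 114 with a fold of 3 and 35 with a fold of 6, 94 with an EZ mean of at least 5, and 11 where every EZ library had to exceed every MZ and DZ library 4 times. With libraries left out it ran from 52 to 98, 98 being the count without replicate 3 in all zones. The median in place of the mean gave 81, and only 39 of these were among the 58 members. Quantile normalization gave 58, of which 55 were members. Without replicate 1, 2 or 3 in all zones, 41, 47 and 53 of the genes found were members. The set thus changed as well as its size. In DZ against MZ, members called higher ran from 2 to 11 and members called lower from 3 to 11 with libraries left out. Without a replicate number in all zones, settings chosen after seeing the data for this test, they were 10 and 3 for number 1, 2 and 11 for number 2, and 3 and 4 for number 3. Of all genes then tested, 20.5%, 21.8% and 22.7% were called higher and 27.4%, 27.2% and 28.0% lower, in that order. In each of these settings the members stayed those chosen with all libraries. The cause of the shifts between settings was not tested. With the replicate block, 4 members were called higher and 9 lower, beside 24.3% and 28.0% of all genes tested. The block ended no call of the 14 members but that of GRMZM2G539367. It left the members called higher at 41 in EZ against MZ and at 43 in EZ against DZ. Plain eBayes gave 4 and 10, quantile normalization 4 and 10, a pseudocount of 0.1 gave 5 and 11, no filter on low values 4 and 8, and a fit without the third zone 4 and 7. Of all genes tested, these settings called 23.7%, 23.8%, 25.6%, 14.6% and 24.3% higher, in that order. They called 27.7%, 27.4%, 30.8%, 16.6% and 28.5% lower. No call of the 14 members changed direction in the settings tried. Depth limits members seen in a single library, whose read number is unknown.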

Other observations

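The form of the ID went with how steadily a peak was seen. Of the 13 members above 0.01 RPKM in fewer than 3 EZ libraries, 11 had an ID that starts with GRMZM2G5, against 6 of the 45 members seen in 3 EZ libraries. Such IDs made up 2.87% of the 10520 maize genes with an EZ mean of at least 10 RPKM, 3.32% of the genes tested and 22.0% of all maize rows. Of those 10520 genes, 1.08% were above 0.01 RPKM in fewer than 3 EZ libraries. The labels and the table do not say what sets these IDs apart.

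Rank 58 had 0.556, 0.459 and 30.1 RPKM in the EZ libraries, against 0.400, 0.436 and 0.584 in the MZ libraries and 0, 0 and 0.0518 in the DZ libraries, so that its peak rests on EZ replicate 3. Rank 42 had 11.2, 0 and 43.8 RPKM in the EZ, against 0.237, 0 and 0 in the MZ and 0 in each DZ library.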
